A study of Mus musculus with 8 samples.

Results

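Parathyroid-like cells of the E13.5 fetal mouse thymus preparation are described here, cell by cell and gene by gene, and set against all other cells of the same library. The members were selected on measured values: a cell was a member when its unique molecular identifiers (UMIs, counted RNA molecules) of Gcm2, Chga and Casr summed to 3 or more. Of the 1981 cells within the quality limits (at most 5% mitochondrial UMIs and at most 5000 detected genes), 138 passed, or 6.97% (exact binomial 95% interval 5.88 to 8.18, counting error only). The remaining 1843 cells are called the other E13.5 cells. Across all 8 libraries 25750 cells were within the limits.

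The study profiled thymic epithelial cells (TEC) by droplet single-cell RNA sequencing. All libraries came from wild-type mice of the strain C57 B6 (CD45.2), with thymus as the labelled tissue, and live EpCAM+ CD45- cells were sorted. At E13.5 total TEC were taken with no further gate, whereas the E15.5, E17.5, newborn (NB) and adult cortical TEC (cTEC) libraries were gated as Ly51+ UEA-1- and the adult medullary TEC (mTEC) libraries as Ly51- UEA-1+. The E13.5 group is 1 library, the number of embryos pooled is not given, and no test between cells was made. Every interval below covers counting error only.

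The parathyroid gland and the thymus both arise from the third pharyngeal pouch, where neighbouring domains of the endoderm become the gland and the thymic epithelium. Gcm2 is the transcription factor required to form parathyroid cells, and Gata3 acts with it in the embryo. A parathyroid cell reads blood calcium through the calcium-sensing receptor Casr, a G protein coupled receptor, and releases parathyroid hormone, the product of Pth, from secretory granules that also contain chromogranin A, the product of Chga.

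The label was checked first with Pth, the marker that the rule did not use. Pth UMIs in a member ran from 0 to 914, with a median of 189.5. They were absent in 6 members, numbered 1 to 9 in 11 members and 10 or more in 121 members. No other E13.5 cell exceeded 5 Pth UMIs. The 121 members with 10 or more Pth UMIs, of which the lowest had 14, therefore did not overlap with the other cells. Summed over cells, Pth was 40027 UMIs per 1000000 UMIs of the group (CPM) in members and 83.2 CPM in the other cells, a ratio of 481 (454 to 510). With a rule of Gcm2 and Casr alone (2 UMIs or more), which leaves most members among the comparison cells, the log2 ratio of CPM + 10 was 5.21 instead of 8.75. Pth alone made up a median of 4.36% of a member's UMIs, and 12.4% in the highest member.

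Members held fewer UMIs than the other cells, with medians of 4373.5 and 7213, and shares of cells were therefore compared after thinning each cell to 3000 UMIs. In thinned cells a Pth UMI was present in 110 of 122 members, or 90.2% (83.5 to 94.8), and in 400 of 1801 other cells, or 22.2% (20.3 to 24.2). Without thinning these shares were 95.7% and 46.4%. Low Pth counts were thus found in many of the other cells, and members were set apart by the size of the count rather than by the presence of a UMI. For genes outside the rule, the ratio of Ccl21a to Pth UMIs was 1.8 in the other cells and 0.196 in members, that of Ibsp to Pth was 0.0184 and 0.0425 and that of Sparcl1 to Pth, closer on both sides, was 0.0301 and 0.0346. Chga, which the rule bounds in the other cells, gave 0.492 and 0.459. Whether free RNA gave the low counts was not tested.

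The threshold of the rule cut through a sparse range. At a marker sum of 2 UMIs there were 85 cells, at 3 UMIs 12 cells, and at 4 and at 5 UMIs 1 cell each, while 67 cells had a sum of 100 to 362. The 85 cells just outside the rule had Pth at 79.5 CPM (61.6 to 101) and Psmb11, a cortical proteasome subunit, at 172 CPM. The 13 members with 3 or 4 UMIs had Pth at 87.8 CPM (48 to 147) and Psmb11 at 188 CPM. These 13 cells were deep, with a median of 12563 UMIs, and held 21.3% of all UMIs of the members. Their Pth and Psmb11 lay near those of the other E13.5 cells (83.2 and 239 CPM), and in this range the data go against the name. Gnas, at 590 CPM (477 to 722), and Ccl21a, at 1123 CPM, with 162 of 179 UMIs in 1 cell, were above the 279 and 150 CPM of the other cells. The 125 members with 5 or more marker UMIs are therefore given beside all 138 for the list counts that change and for the genes that move most.

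**Figure D1:**
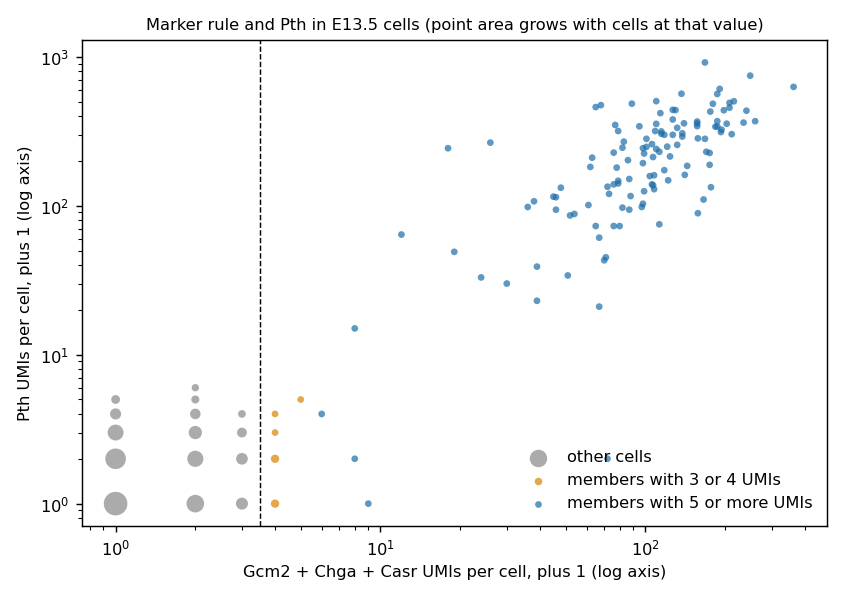
Each point is a pair of values in the 1981 E13.5 cells, with the summed Gcm2, Chga and Casr UMIs on the x axis and Pth UMIs on the y axis, both plus 1 and on log axes; area grows with the number of cells. Grey cells lie outside the rule (dashed line), and the 13 orange members with 3 or 4 marker UMIs have 4 Pth UMIs or fewer, like the grey cells, whereas 121 of the 125 blue members have 14 Pth UMIs or more.

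Of the 3 genes of the rule, Chga supplied 98.8% of the UMIs that selected members, so that membership was in practice a Chga threshold. Every member had a Chga UMI, from 1 to 360 with a median of 97. Gcm2 ran from 0 to 6 UMIs with a median of 1 and was present in 86 members. Casr ran from 0 to 4 UMIs and was present in 18 members. All 3 genes were present together in 10 members, and Chga was present without either of the others in 44. The summed levels were 18382 CPM against 40.9 CPM in the other cells for Chga, 185 against 1.04 CPM for Gcm2 and 29.3 against 0.556 CPM for Casr. These contrasts were fixed by the rule and are given as description. Gcm2 was also found in 14 of the other E13.5 cells and Casr in 8.

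Only 4 of the 125 members with 5 or more marker UMIs had fewer than 10 Pth UMIs, and they differed in their marker, Ccl21a and Cldn5 counts. In the order below they had 41, 43, 21 and 22 Gnas UMIs and 6, 2, 4 and 0 Ibsp UMIs. The first had 3 Pth, 3 Chga, 2 Gcm2 and 86 Ccl21a UMIs of 5861. The second had 70 Chga, 1 Gcm2 and 1 Pth UMI of 4000. The third had 8 Chga, 0 Gcm2 and 0 Pth UMIs of 2476. The last had 7 Chga and 1 Pth UMI of 5391, no Gcm2 or Gata3, and all 28 UMIs of the tight junction gene Cldn5 found in members. Among the 13 members with 3 or 4 marker UMIs, 1 cell had 2 Gcm2 and 162 Ccl21a UMIs of 7891 with 1 Pth UMI. These 5 cells were singled out after their values were seen.

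To show the sequences in front of the genes that define the cells, promoter windows (250 bases before to 50 bases after the start site, RefSeq, GRCm38.p6) were searched on both strands for letters bound by factors that members carried: ATGCGGGT for GCM proteins and AGATAA for GATA proteins. Capitals mark a match in either orientation. The windows of Pth (chr7:113388524-113388823, minus strand) and Gcm2 (chr13:41109939-41110238, minus strand) each held 1 GATA match, 133 and 15 bases before the start.
Pth: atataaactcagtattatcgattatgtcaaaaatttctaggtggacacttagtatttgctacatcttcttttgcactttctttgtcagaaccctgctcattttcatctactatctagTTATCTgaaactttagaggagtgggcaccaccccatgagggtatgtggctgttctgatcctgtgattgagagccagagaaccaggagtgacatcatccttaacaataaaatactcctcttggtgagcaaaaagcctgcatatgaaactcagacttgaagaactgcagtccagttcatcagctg
Gcm2: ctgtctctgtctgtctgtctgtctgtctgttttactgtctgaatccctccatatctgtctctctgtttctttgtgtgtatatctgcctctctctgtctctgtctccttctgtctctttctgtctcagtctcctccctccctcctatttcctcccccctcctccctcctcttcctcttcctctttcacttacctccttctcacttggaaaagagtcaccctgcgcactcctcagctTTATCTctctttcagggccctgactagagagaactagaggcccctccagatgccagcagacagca
The GATA letters were in 11.2% of all 32851 windows of this length and the GCM letters in 0.256%. Among the 6578 genes compared below that have a window the shares were 7.15% and 0.547%, and among the 402 higher genes they were 9.45% and 0.249%, so the GATA share of the higher genes was above that of the compared genes and below that of all windows. No match to either set of letters was found in the windows of Chga and Casr, which says only that these letters are not there.

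Against the other E13.5 cells, members differed in level at many genes. Levels were CPM of the summed UMIs, and a gene was called higher or lower when the ratio of CPM + 10 was 2-fold or more, among 8501 genes with a mean CPM of at least 10 over both sides. In members 515 genes were higher (6.06% of those compared) and 282 were lower (3.32%), and the median log2 ratio of all genes was 0.03. In the 125 members with 5 or more marker UMIs, 704 of 8548 genes were higher (8.24%) and 512 lower (5.99%), with a median of 0.05. All 515 higher genes were higher in both, and 273 of the 282 lower genes were lower in both. The cells were chosen on counts of the same library, so these counts describe the members and test nothing. The same shares are the background of every list below: 6.06% higher and 3.32% lower over all members, and 8.24% and 5.99% over those with 5 or more marker UMIs.

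With the genes of the rule left out, the highest ratios of CPM + 10 after Pth belonged to 3 secreted matrix proteins encoded in 1 region of chromosome 5. Ibsp, bone sialoprotein, was 1702 CPM in members (1610 to 1798) and 1.53 CPM in the other cells, a ratio of 1112 (731 to 1781). Sparcl1, a SPARC-like matrix protein, was 1386 against 2.5 CPM, and Spp1, osteopontin, 907 against 0.974 CPM. The 3 genes span positions 104079111 to 104441050 (GRCm38). The annotation places Dspp, Dmp1 and Mepe, matrix protein genes of bone and tooth, between them, and these had 0 UMIs in members and in the other cells. In thinned cells Ibsp had a UMI in 82.8% of members (74.9 to 89.0) and Sparcl1 in 85.2% (77.7 to 91.0), against 0.444% and 0.944% of the other cells, but Spp1 was found in only 32.8% of members (24.6 to 41.9), against 0.555%.

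Regulators of the gland differed among themselves. Gata3, which with Gcm2 acts on the Pth gene, was 600 CPM (546 to 658) against 17.8 CPM and was present in 77.0% of thinned members (68.6 to 84.2) and 5.775% of thinned other cells. Within the list of 11 parathyroid and pouch regulators, 3 of 9 genes compared were higher in all members, against 6.06% of all genes, among them Gata3 and Gcm2, the latter from the rule, none was lower, and the median log2 ratio was 0.15. In the members with 5 or more marker UMIs 5 of 10 were higher, against 8.24%, and 1 was lower, with a median of 0.62. Gcm2, counted in both groups, and Tbx1, counted only in the second, were compared only through their level in members. Their calls were fixed in advance, so the counts and medians are description. The pouch factors Eya1 and Hoxa3 were within 2-fold, with Eya1 at 97.4 against 94.7 CPM and Hoxa3 at 24.0 against 20.6 CPM. Pax1 was 112 against 227 CPM and Pax9 281 against 150 CPM, both within 2-fold on the CPM + 10 scale. In the members with 5 or more marker UMIs both passed it, with Pax1 lower at 84.7 CPM and Pax9 higher at 315 CPM. Tbx1, a pouch factor with only 13 UMIs in members, was 17.3 against 1.04 CPM and was not compared over all members because its mean was under 10 CPM. With 5 or more marker UMIs it was 22.0 CPM, which alone brought it into the comparison, so its call as higher was fixed by the filter.

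Ccl21a, a chemokine that attracts cells carrying Ccr7 and is known in the thymus from medullary epithelium and the fetal parathyroid domain, was the second most abundant of these genes. It was 7846 CPM in members (7647 to 8049) and 150 CPM in the other cells, a ratio of 52.4, and its UMIs were present in 91.0% of thinned members (84.4 to 95.4) and 14.05% of thinned other cells. In the 380 other cells with 3 or more Krt5 and Krt14 UMIs, a medullary-type keratin set, Ccl21a was 400 CPM. Near-identical copies of this gene lie on chromosome 4, so that its counts are uncertain between copies. Other genes among the 15 highest ratios were the plasma lipase Pla2g7 (692 against 5.08 CPM), Gdpd1, a phosphodiesterase of glycerol lipids (838 against 11.4 CPM), the ribonuclease Rnase4 (592 against 5.29 CPM), the matrix protein nephronectin, Npnt (1432 against 32.5 CPM), the crystallin Cryba2 (304 against 0.695 CPM), the aminopeptidase Anpep (308 against 0.904 CPM), the secretory pathway pseudokinase Fam20a (265 against 2.3 CPM) and the guidance protein Flrt2 (316 against 5.08 CPM).

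**Figure D2:**
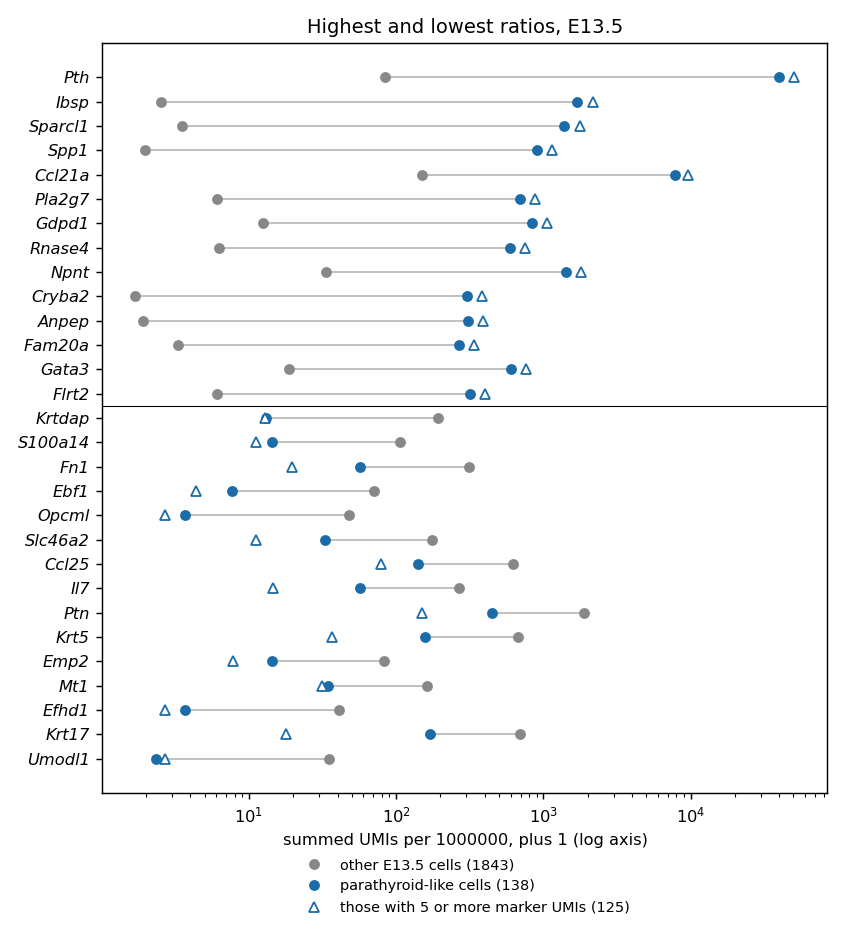
CPM of summed UMIs plus 1 (log axis) of 14 of the 15 genes with the highest and the 15 with the lowest ratio, the rule genes left out. Grey points are the other 1843 E13.5 cells, filled blue points all 138 members and open triangles the 125 members with 5 or more marker UMIs; for Krt17 the triangle is at 16.9 CPM and the filled point at 168 CPM, against 688 CPM in grey.

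Genes of calcium sensing were described from a list of 21. Of 13 compared, 6 were higher, against 6.06% of all genes, and none lower, and the median log2 ratio was 0.95; in the members with 5 or more marker UMIs 7 of 12 were higher and none lower (median 1.13). Apart from Casr, which the rule used, the 6 were the vitamin D receptor Vdr (108 against 0.695 CPM), Kl, encoding the FGF23 co-receptor klotho (65.3 against 0.348 CPM), Fgfr1, a receptor partner of klotho (25.3 against 5.01 CPM), the calcium channel Orai1 (33.3 against 10.4 CPM) and the adaptor subunit Ap2s1 (239 against 114 CPM). Casr, Vdr, Kl and Fgfr1 were under 10 CPM in the other cells and were compared only through their level in members. Their calls therefore lean on the filter, and the count of higher genes tests nothing. Vdr was present in 30.3% of thinned members (22.3 to 39.3) and 0.222% of thinned other cells, and Kl in 18.0% (11.7 to 26.0) and 0.111%. The G protein subunits that Casr couples to were within 2-fold, with Gnaq at 49.3 against 63.6 CPM and Gna11 at 26.7 against 30.1 CPM. Gnas, encoding the stimulatory G protein subunit, was outside the list and was 5805 CPM in members (5634 to 5980) and 279 CPM in the other cells, a ratio of 20.8.

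The secretory apparatus was uneven. Of 21 secretory granule genes only 4 could be compared, and the higher ones were Chga, from the rule, and the prohormone carboxypeptidase Cpe (32.0 against 3.13 CPM). Members had 0 UMIs of 12 of the 21 genes, among them the granin Scg2, which was 6.54 CPM in the other cells. The proprotein convertase Furin was 20.0 against 11.1 CPM and Pcsk7 9.34 against 3.55 CPM, within 2-fold or not compared. Of 26 genes of protein entry and folding in the endoplasmic reticulum, all 26 were compared, 4 were higher and none was lower, against 6.06% and 3.32% of all genes, with a median log2 ratio of 0.19. The counts were the same in the members with 5 or more marker UMIs. The 4 were the translocon subunits Ssr4 (669 against 215 CPM) and Ssr2 (456 against 193 CPM) and the signal peptidase subunits Spcs1 (480 against 164 CPM) and Sec11c (57.3 against 23.0 CPM). The folding chaperones Hspa5 (340 against 400 CPM) and Calr (702 against 717 CPM) were within 2-fold.

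Genes of the thymic epithelial programme were lower. Of 12 cortical genes compared, 10 were lower, against 3.32% of all genes, and none higher, with a median log2 ratio of -1.70. In the 125 members with 5 or more marker UMIs all 12 were lower, against 5.99%, with a median of -2.64. Foxn1, the transcription factor that thymic epithelium requires, was 21.3 CPM in all members, 10.2 CPM (3.73 to 22.1) in those with 5 or more marker UMIs and 89.4 CPM in the other cells. Psmb11 was 54.7, 18.6 and 239 CPM in the same order, and Prss16, a thymus-specific protease, was 128, 57.6 and 501 CPM. The chemokine Ccl25 was 140, 77.9 and 620 CPM, and the cytokine Il7 was 56.0, 13.55 and 267 CPM. A cortical transcript (Psmb11, Prss16 or Foxn1) was present in 12.8% (7.2 to 20.6) of thinned members with 5 or more marker UMIs, in 7 of the 13 thinned members below that and in 72.7% of thinned other cells.

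Antigen presentation genes followed the same order. Of 9 compared, 6 were lower in all members (3.32% of all genes; median log2 ratio -1.17) and 8 in the members with 5 or more marker UMIs (5.99% of all genes; median -2.73). Cd74, the invariant chain of MHC class II, was 189 CPM in all members, 8.47 CPM (2.75 to 19.8) in those with 5 or more marker UMIs, 860 CPM in the 13 below that and 483 CPM in the other cells. H2-Ab1, an MHC class II chain, was 199, 47.4, 759 and 531 CPM. Most of the Cd74 counted in members thus came from the 13 cells at the edge of the rule.

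The medullary list was divided. Of 9 genes compared, 3 were higher (Ccl21a and the claudins Cldn3, 152 against 31.5 CPM, and Cldn4, 58.7 against 18.0 CPM) and 3 were lower (Krt5, Krt17 and Trp63), against 6.06% and 3.32% of all genes, with a median log2 ratio of -0.85. With 5 or more marker UMIs, Relb and Krt14 were lower as well, and the median was -1.03. Krt5, a basal keratin, was 157 CPM in all members, 35.6 CPM (22.02 to 54.4) in those with 5 or more marker UMIs and 673 CPM in the other cells, and Krt17 was 168, 16.9 and 688 CPM. Aire and Fezf2 were too low to compare. Epcam, the epithelial surface marker of the sort, was 1295 against 819 CPM. Of 11 epithelial genes, Cldn7 was higher (180 against 56.1 CPM), the keratins Krt8 (564 against 1786 CPM), Krt18 (1015 against 2562 CPM) and Krt19 (17.3 against 85.1 CPM) were lower, and 7 were within 2-fold, with a median log2 ratio of 0.48. Among those with 5 or more marker UMIs Spint2 (547 CPM) and Cldn6 (235 CPM) were higher too, and Krt19 was 5.08 CPM.

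The 15 lowest ratios held further genes of these kinds. Besides Krt5, Krt17, Ccl25 and Il7 they were the keratinocyte gene Krtdap (12.0 against 192 CPM), S100a14 (13.3 against 105 CPM), the matrix protein fibronectin, Fn1 (56.0 against 313 CPM), the transcription factor Ebf1 (6.67 against 69.6 CPM), the adhesion protein Opcml (2.67 against 46.6 CPM), the thymic stromal transporter Slc46a2 (32.0 against 174 CPM), the growth factor pleiotrophin, Ptn (448 against 1875 CPM), Emp2 (13.3 against 82.1 CPM), metallothionein Mt1 (33.3 against 161 CPM), Efhd1 (2.67 against 39.9 CPM) and Umodl1 (1.33 against 34.0 CPM). Opcml, Efhd1 and Umodl1 rested on 2, 2 and 1 UMI in members, under the 3 counts (4 CPM) taken as the floor. At that floor they were at least 11.7-fold, at least 9.96-fold and at least 8.5-fold lower. In the members with 5 or more marker UMIs Fn1 was 18.6 CPM, Slc46a2 10.2 CPM, Ptn 149 CPM and Emp2 6.77 CPM, since the 13 other members had them at 195, 113, 1556 and 37.6 CPM. With a rule of 2 UMIs or more, 11 of these 15 genes came within 2-fold, with log2 ratios of -0.34 for Krt5, -0.07 for Krt17 and -0.07 for Emp2.

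**Figure D3:**
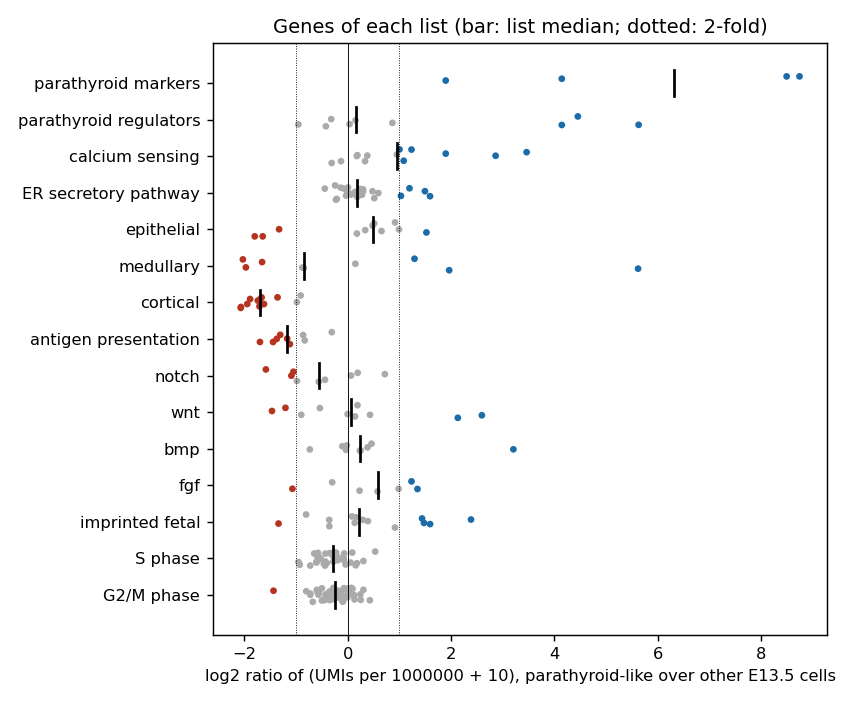
Log2 ratio of CPM + 10 of members over other E13.5 cells for every gene compared in 15 gene lists; blue points are higher, red points lower and grey points within 2-fold (dotted lines), and black bars are list medians. The cortical list has its median at -1.70 with 10 of 12 points red, and the S phase list has its median at -0.28 with none of 41 points coloured.

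Signalling genes are given list by list, to be read against the 6.06% of all compared genes that were higher and the 3.32% that were lower. A single call in so short a list is a value of that gene and not a result about the list. In the Wnt list, 2 of 10 were higher, the non-canonical ligands Wnt5a (85.4 against 11.8 CPM) and Wnt5b (56.0 against 0.904 CPM), and 2 were lower, Wnt4 (18.7 against 69.2 CPM) and Sfrp1 (2.67 against 19.2 CPM), with a median log2 ratio of 0.07. Sfrp1 in members was under the floor of 3 counts (4 CPM), so its level there is not resolved. In the BMP list, 1 of 9 was higher, the inhibitor of DNA binding Id4 (111 against 3.06 CPM), while Id1, Id2 and Id3 were within 2-fold (median 0.24). In the FGF list, Fgfr1 and the feedback phosphatase Dusp6 (153 against 54.0 CPM) were higher and Fgfr2 (37.3 against 89.4 CPM) was lower, of 7 compared (median 0.58). In the Notch list none of 9 was higher and 3 were lower: Hes6 (224 against 475 CPM), Hey1 (60.0 against 199.8 CPM) and Notch1 (16.0 against 45.3 CPM), with a median of -0.56. In the members with 5 or more marker UMIs Dll4 was lower too (median -0.96), as were Fzd2 of the Wnt list and Gas1 of the Hedgehog list, while Etv4 of the FGF list was higher. In the Hedgehog list, 1 of 6 was higher, the ligand-binding antagonist Hhip (26.7 against 3.27 CPM), and the median was -0.14. Of 12 adhesion and guidance genes, 2 were higher, the cadherins Cdh11 (116 against 21.8 CPM) and Cdh2 (24.0 against 6.19 CPM), with a median of 0.06. In the chemokine list Ccl21a and Cxcl14 (72.0 against 22.3 CPM) were higher and Ccl25, Cxcl12 and Kitl lower, of 5 compared (median -1.71). None of the 4 genes compared of the Hox list or of the 7 survival genes passed 2-fold, with medians of 0.39 and 0.18. Hoxa7, outside the list and named after its value was seen, was lower, with 0 UMIs in members and 26.5 CPM in the other cells. Of 8 stress genes 1 was lower, Egr1 (13.3 against 44.9 CPM), with a median of -0.07.

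Growth and cell cycle genes were described next. Of 14 imprinted and fetal growth genes compared, 4 were higher, against 6.06% of all genes: Peg3 (241 against 38.0 CPM), the growth factor Igf2 (247 against 84.6 CPM), its clearance receptor Igf2r (66.7 against 15.4 CPM) and the cell cycle inhibitor Cdkn1c (700 against 245 CPM). Hmga2, a chromatin protein of fetal tissue, was lower (252 against 653 CPM), and the list median was 0.23. With 5 or more marker UMIs, H19 (730 against 328 CPM) was higher and Dlk1 (1.69 against 19.1 CPM) lower as well. Of 11 cell cycle inhibitors and D cyclins compared, Cdkn1c and Cdkn2d (100 against 39.4 CPM) were higher, against 6.06% of all genes, and none was lower (median 0.32). Among those with 5 or more marker UMIs Cdkn2c was higher too, and Rb1 (5.08 against 25.6 CPM) was lower (median 0.41). Cdkn1c was present in 81.1% of thinned members and 43.5% of thinned other cells. None of 41 S phase genes passed 2-fold, and 35 of them had a log2 ratio below 0 (median -0.28). Of 54 G2/M genes 1 was lower, Ckap2 (12.0 against 49.5 CPM), and 43 had a log2 ratio below 0 (median -0.25). Among those with 5 or more marker UMIs 2 S phase genes were lower, Cdca7 and Mcm4 (median -0.31), and 4 G2/M genes, Ckap2, Hmgb2, Psrc1 and Nuf2 (median -0.43).

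In thinned cells the S and G2/M genes together gave a median of 21 UMIs per member (quartiles 9 and 48.5) and 37 UMIs per other cell (quartiles 19 and 50). A total of 10 UMIs or fewer was found in 41 of 122 members, or 33.6% (25.3 to 42.7), and in 283 of 1801 other cells, or 15.7% (14.1 to 17.48). Members thus included cells with many and cells with few cycle transcripts, with a larger share at the low end. Among the 109 thinned members with 5 or more marker UMIs, Pth was of like level in both, with a median of 159 UMIs in the 39 cells with 10 or fewer cycle UMIs and 161 in the 40 cells with 30 or more. Gcm2 was present in 69.2% of the first and 37.5% of the second. Genes of cytosolic ribosomal proteins took 18.5% of all UMIs in members, 16.4% in the members with 5 or more marker UMIs and 26.0% in the other cells.

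Markers of other cell types varied by list. None of the thymocyte (12 genes), mesenchymal (10) and myeloid (8) markers reached the level needed for comparison. Members had 0 UMIs of 10, 6 and 6 of them, where a 0, here and below, allows up to 4.92 CPM for each gene. The summed level was 13.3 CPM in members against 6.89 CPM for thymocyte, 8 against 33.3 CPM for mesenchymal and 17.3 against 3.06 CPM for myeloid markers. Of the 8 thyroid markers, members had 0 UMIs of 7, including Nkx2-1 and Pax8, and Hhex was 5.33 against 45.6 CPM. Of the C cell markers Isl1 was 38.7 against 147 CPM and 3 of 5 had 0 UMIs. The erythroid list summed to 61.3 CPM in members and 41.8 CPM in the other cells, and the endothelial list to 80.0 and 23.2 CPM. In the endothelial list the higher gene Cldn5 (37.3 against 0.139 CPM) came from the 1 member named above, and the defining marker Pecam1 was 5.33 against 4.73 CPM. In the neural crest list Stmn2 (285 against 1109 CPM, and 76.2 CPM with 5 or more marker UMIs) was lower and 4 of 8 genes had 0 UMIs in members. The neural crest list summed to 300.1 CPM in all members, 93.2 CPM in those with 5 or more marker UMIs and 1134 CPM in the other cells. Stmn2 alone gave 285, 76.2 and 1109 CPM of these sums. It was found in 90.1% of the other cells, so the sums do not mark out neural crest cells. The part of these cell types in the results was not tested.

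Members were also set beside 3 kinds of other E13.5 cell chosen by markers. Of the 138 members, 11 reached 3 UMIs of Psmb11 and Prss16, and 8 of these were among the 13 cells with 3 or 4 marker UMIs; of the other cells 62.2% reached it. Hhex, Nkx2-1 and Pax8 reached 3 UMIs in 1 member and in 72 other cells, and Krt5 and Krt14 in 3 members and 380 other cells. Pth was 82.8 CPM in the other cells with Psmb11 and Prss16, 101 CPM in those with Hhex, Nkx2-1 and Pax8 and 79.6 CPM in those with Krt5 and Krt14. Gata3 was 12.7, 13.4 and 18.6 CPM in the same order, all far below members. All 3 sets had Pth and Gata3 near the level of the other cells as a whole.

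Members varied among themselves in some genes more than in others. Over the 109 thinned members with 5 or more marker UMIs, Chga ran from 2 to 150 UMIs with quartiles of 52 and 93, and Gnas from 7 to 38 with quartiles of 17 and 27. Pth ran from 0 to 369 UMIs with quartiles of 94 and 220. Spp1 was the most uneven of the genes plotted: its median was 0, it was present in 36.7% of these cells, and its highest value was 45 UMIs. The 23 cells with 5 or more Spp1 UMIs had a median of 93 Pth UMIs (quartiles 76 and 136.5), and the 69 cells without Spp1 had a median of 180 (119 and 236). Chga differed little between them, with medians of 72 and 76 UMIs, as did Ccl21a, with 35 and 28.

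**Figure D4:**
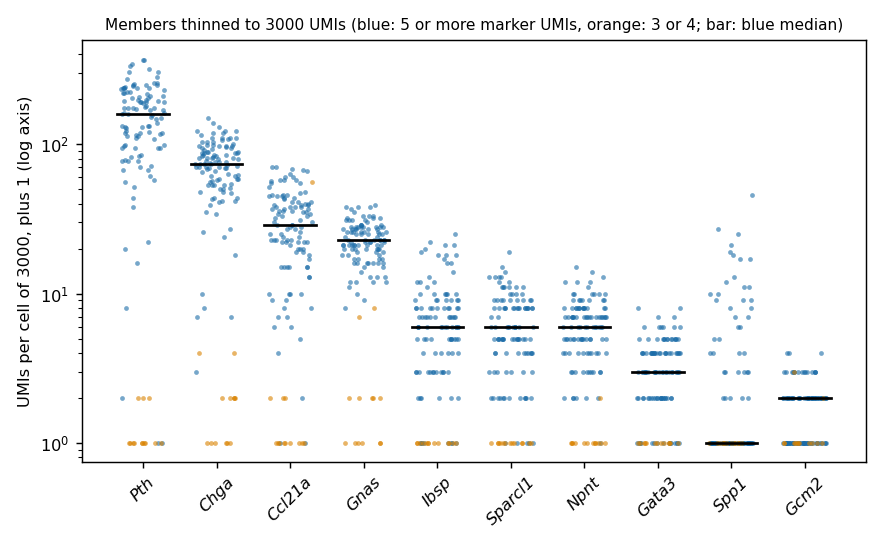
UMIs per cell plus 1 (log axis) of 10 genes in the 122 members that could be thinned to 3000 UMIs; blue points have 5 or more marker UMIs, orange points 3 or 4, and black bars are the medians of the blue points. Pth has a blue median of 159 UMIs, and Spp1 has a median of 0 with values up to 45.

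Among 1647 genes with a UMI in at least 25% of the 122 thinned members, those most alike to Pth by rank correlation were Ibsp (Spearman's rho 0.69), Chga (0.59), the membrane-binding annexin Anxa2 (0.47), the lysosomal protease Ctsz (0.46) and Ssr2 (0.45). The same 5 genes led in the 109 members with 5 or more marker UMIs, at 0.59, 0.44, 0.39, 0.34 and 0.33. The cells share a library, and the sum of each thinned cell is fixed, so that a gene at several percent of the total lowers all others. Gata3 ranked lower, at 0.33 over all 122 members and 0.11 in the 109. Spp1 had a rho of -0.19 over the 122 and -0.38 over the 109, next to last of 1650 genes.

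Higher genes were often next to each other on the chromosomes. Of 513 higher genes with a position in the annotation, 124 (24.2%) had a higher gene as the nearest compared neighbour on at least 1 side, against 973 of all 8492 compared genes with a position (11.5%). Besides Sparcl1, Ibsp and Spp1, these pairs included Gcm2 with Sycp2l (77.4 against 0.487 CPM), a gene on the opposite strand that starts 3271 bases away, and Rnase4 with the overlapping angiogenin gene Ang (82.7 against 1.11 CPM), where reads cannot be split with certainty. Gdpd1 and Ypel2 (81.4 against 3.06 CPM) were a further such pair, 40159 bases apart. In all there were 69 pairs, 37 of them on the same strand and 5 overlapping. These pairs were picked after their values were seen, and no cause of the pattern was tested.

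The same rule found cells in other libraries, which it had not been set on. In the E15.5 cTEC library 7 of 3571 cells passed (0.196%, 0.0788 to 0.403), all with 443 to 2140 Pth UMIs and 5 of them with Gcm2. In the E17.5 cTEC library 2 of 8350 cells passed (0.024%, 0.0029 to 0.0865), with 2059 and 3822 Pth UMIs and both with Gcm2. No cell passed in the NB cTEC library (0 of 3605, which allows a share of up to 0.0832% at 3 counts of the total, or 0.102% as the exact binomial limit) or in adult cTEC replicate 2 (0 of 535, up to 0.561% and 0.687%). The gates differ, since the E13.5 sort took all EpCAM+ CD45- cells and the later sorts only Ly51+ UEA-1- cells, and age, gate and library cannot be told apart.

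The genes highest at E13.5 were followed in these later cells. Of the 15 genes with the highest ratios at E13.5, 14 were above 2-fold in the 7 cells against the other E15.5 cells and 13 in the 2 cells against the other E17.5 cells, while Spp1 had 0 UMIs at both ages and Ccl21a at E17.5 was lower than in the other cells (64.3 against 156 CPM). Of all genes compared in these few cells, 20.5% and 23.6% were above 2-fold in the same direction. Pth was 50808 CPM in the 125 E13.5 members with 5 or more marker UMIs, 140290 CPM (137014 to 143624) at E15.5 and 189191 CPM (184386 to 194089) at E17.5. A single E15.5 cell devoted 8.83% to 22.3% of its UMIs to Pth, and the 2 E17.5 cells 18.4% and 19.9%. Gcm2 was 230 CPM (193 to 272), 242 CPM (125 to 422) and 257 CPM (111 to 507) in the same order, with overlapping intervals, and Gata3 759, 887 and 740 CPM.

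Ccl21a took the opposite order. It was 9661 CPM (9411 to 9915) in the E13.5 members with 5 or more marker UMIs, 2982 CPM (2521 to 3503) at E15.5 and 64.3 CPM (7.79 to 232) at E17.5. At E15.5 the 7 cells had 2, 5, 7, 9, 31, 32 and 62 Ccl21a UMIs, and at E17.5 the 2 cells had 0 and 2, although these were deeper, with 20739 and 10346 UMIs. Ibsp was 2161, 1713 and 386 CPM in the same order. With 1 library at each age no test was possible, and the later values rest on 7 and 2 cells.

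**Figure D5:**
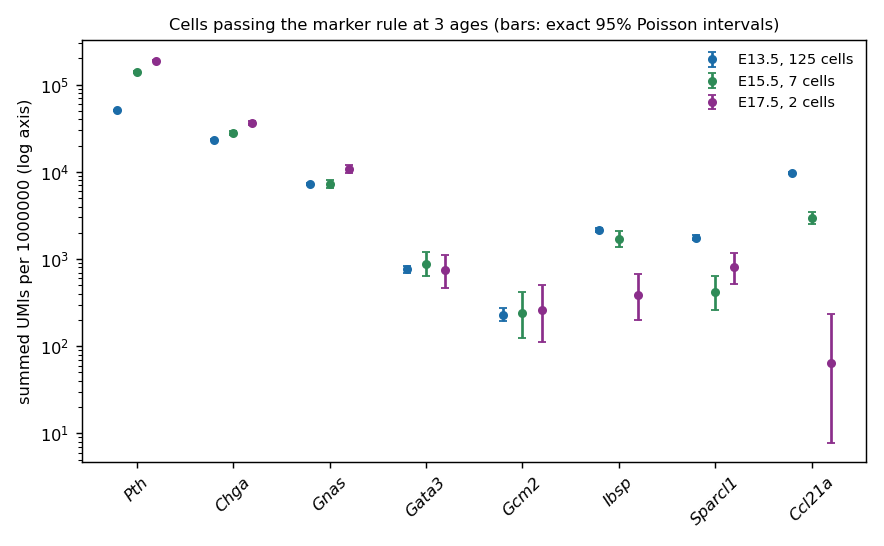
CPM of summed UMIs (log axis) of 8 genes in the cells passing the marker rule at E13.5 (125 members with 5 or more marker UMIs), E15.5 (7 cells) and E17.5 (2 cells), with exact 95% Poisson intervals for counting error. Pth is 50808, 140290 and 189191 CPM, and Ccl21a is 9661, 2982 and 64.3 CPM.

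In the adult mTEC libraries the rule found cells of another make-up. It passed 37 of 1586 cells in replicate 1 and 163 of 5615 in replicate 2, and 1 of 507 cells in adult cTEC replicate 1. In the mTEC libraries 37 and 157 of the cells reached 3 UMIs by Chga alone. Pth UMIs were found in 0 and 7 of these cells, and Gcm2 in 0 and 1. The medullary regulator Aire was present in 31 and 138 of them. By Pth and Gcm2, the adult cells passing the rule do not as a group carry the label of the E13.5 members. An exception by Pth was 1 replicate 2 cell with 16 Pth UMIs, which had 0 Gcm2 UMIs.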

How the data were processed

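The values were whole-number UMI counts per gene and cell, deposited by the authors as 10x matrices. The submitters' processing notes name bcl2fastq 2.17, Cell Ranger 2.0.1, STAR 2.5.1b and mm10, and the headers of some matrices name Cell Ranger 3.0.1. The labels give thymus as the tissue, while the growth protocol speaks of a bone marrow suspension. Cells with over 5% mitochondrial UMIs or over 5000 genes were left out. The members and the gene lists were chosen with earlier results of these data known.

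Counts were summed over members and over the other E13.5 cells and scaled to 1000000 UMIs (CPM). Ratios used CPM + 10, genes with a mean CPM of at least 10 and a threshold of 2-fold. Levels have exact Poisson, shares exact Clopper-Pearson and ratios exact conditional binomial intervals (95%, counting error only). With 1 library no test was made. The genes named were the markers, the leading and role-defining genes of each list, the 15 highest and 15 lowest ratios (rule, mitochondrial, ribosomal protein and haemoglobin genes left out) and the 5 genes most alike to Pth; others named were picked after their values were seen. Among the 15 highest, 1 gene is not reported here. Cells were thinned to 3000 UMIs for shares, which left out 16 members and 42 other cells. Scrublet called 1 of 1981 cells a doublet, none a member. So few calls give no estimate of the doublet share, and no cell was removed on them. The E13.5 cells shared between 1 and 22 barcodes with each other library. Promoters came from RefSeq (GRCm38.p6) and gene positions from GENCODE vM21 (GRCm38). Scripts, tested on simulated data, ran in Python 3.11.15 with numpy 2.4.6, scipy 1.17.1, pandas 2.3.3, scanpy 1.11.5 and matplotlib 3.10.9. Alternatives changed the rule, quality limits, pseudocount, filter, scaling, cell weights, depth and comparison cells.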

Additional observations from a re-analysis of the deposited data

Results flagged for a closer look

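In the E13.5 library 1 barcode outside the quality limits passed the marker rule. It had 4210 UMIs, 1847 genes and 5.04% mitochondrial UMIs, just above the limit of 5%, with a marker sum of 81 UMIs and 143 Pth UMIs. It was left out of all values above.

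In adult mTEC replicate 2, which is no part of the E13.5 comparison, 25 cells had 10 or more Pth UMIs, with a highest count of 104. Of these, 1 passed the marker rule, 0 had a Gcm2 UMI, 9 had a Chga UMI and 22 had an Aire UMI. The shares of all cells of that library with a Chga or an Aire UMI are not given here. In adult mTEC replicate 1 the highest Pth count was 3 UMIs.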

How the results depend on the processing

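The number of members was 223 with a rule of 2 UMIs or more and 38 with Gcm2 + Casr of 2 UMIs or more. Higher and lower genes, 515 and 282 as reported, numbered 173 and 15 with the 2-UMI rule, 859 and 668 with Gcm2 + Casr, 847 and 558 with a pseudocount of 1 CPM and 150 and 60 with a pseudocount of 50 CPM. Lower genes moved by over 1.5 times, and higher genes by less, to 512 and 704 with a rule of 5 UMIs or more, 451 and 637 with each cell weighted alike, 479 and 679 in thinned cells, 554 and 721 without members holding a cortical transcript and 469 and 667 in cells with few cycle transcripts. The share of members with a Pth UMI, 90.2%, was 95.7% without thinning, 62.6% with the 2-UMI rule and 98.2% with the 5-UMI rule. The named genes followed through the alternatives were those with the 15 highest and 15 lowest ratios of this same comparison, plus the genes of the rule. They were thus picked by the size of their ratio or had selected the cells, and many alternatives kept the same cells. A reversal was therefore unlikely from the start, and the tally is description only. Over these 33 genes and 16 alternatives, 512 of 528 ratios kept their direction past 2-fold, 16 kept it within 2-fold and 0 reversed. Of the 16, 11 were among the 15 lowest genes under the 2-UMI rule. The cause of these changes was not tested. No paired analysis was possible because the comparison is within 1 library and has no test. Depth limits what single members show of Gcm2 and Casr, at a median of 1 and 0 UMIs.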
